A study of Mus musculus with 10 samples.

Results

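The genes described here are developmental and signal-dependent transcription factors, the proteins that bind DNA and set which genes a cell transcribes, as they were measured in the cochlea of mice fed germanium dioxide (GeO2). They were chosen by name from the authors' deposited table of significant genes: every symbol that begins with Hox, Sox, Fox, Klf, Pax, Tbx, Lhx, Gata, Irx, Pou, Stat, Tcf, Nfi, the prefix of the sine oculis homeobox genes, or Nr followed by a digit or letter, apart from a few symbols that the choice set aside. This gave 52 genes with 75 probe sets, of 5552 named genes and of 45037 probe sets on the array. Of the 52, 41 are transcription factors and 11 are other proteins whose symbols start the same way. The prefixes Hox and Lhx and that of the sine oculis genes matched no member, and Pax and Gata matched only such other proteins, so factors with those names were not analysed here.

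The GeO2 group was 5 cochlea samples from 6-month-old male mice of the inbred strain CBA whose diet held 0.15% GeO2 for 4 months. The control group was 5 cochlea samples from CBA males of the same age on normal chow. GeO2 is known as an agent that harms mitochondria and gives hearing loss in laboratory animals. Total RNA of each sample was put on 1 Affymetrix array, and the deposited value is a linear signal per probe set. Whether each sample came from 1 mouse or from pooled mice is not in the labels, and the series' design notes speak of no replicates, so the p-values cover the spread between these 10 samples alone. Precision is limited by how few arrays there are: the median standard error of a log2 change was 0.17.

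Forkhead, Sox, Kruppel-like, nuclear factor I, T-box, POU and basic helix-loop-helix proteins are DNA-binding families whose members direct tissues as they form and then hold cell identity in the adult. Nuclear receptors are a family in which many members switch genes on or off when a hormone, vitamin or lipid binds them, while STAT proteins carry the signal of cytokine receptors from the membrane to the nucleus after a JAK kinase phosphorylates them. In the cochlea these families are known from the making of hair cells, supporting cells, the stria vascularis that charges the endolymph, and the auditory neurons.

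The array medians lay between 447 and 508 signal units, and arrays of one group correlated at 0.938 to 0.972 over log2 signals. RNA of whole cochlea holds many cell types, and fewer cells of a type and less RNA per cell cannot be told apart in it. Cochlear genes were detected: Otor, secreted by fibrocytes, averaged 13704 ± 2848 signal units in GeO2 cochleas and 21238 ± 3602 in control cochleas (SD, n = 5 each), and Otog, of the tectorial membrane, averaged 10651 ± 3459.7 in GeO2 cochleas and 6393 ± 2063 in control cochleas. Only genes in the authors' table, which was selected on these same arrays, have a name here, so unchanged markers can be missing. Of the table's 5179 genes tested, 59.2% were called and 29.6% were lower. Genes of maturing red blood cells moved strongly with the groups. Of 19 measured erythroid markers, 18 were lower in GeO2 cochleas, and Hba-a1 did not pass. Over all 19, the median log2 change was -2.41, and the summed signal was 91714 to 159453 in GeO2 cochleas and 174120.0 to 277197 in control cochleas. All 24 measured markers of dividing cells were lower, with a median of -1.53 and a summed signal of 42127 to 92566 in GeO2 cochleas and 88640.4 to 163312 in control cochleas. No erythroid or dividing cell marker was at 0 on any array. In Epb42, Nfe2, Ccnb1 and Bub1, though, the mean log2 level in GeO2 cochleas was under the lowest level tested, equal to 283.2 units. These genes reached the test only through the control arrays, and the counts of falls include them. The part of the erythroid and dividing cell markers in the results on transcription factors was not tested.

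Among the genes tested, more were called higher than lower in the fit of all 10 arrays, though not in every fit without 1 array. Most changes were under 2-fold. With 1 probe set per gene, the brightest listed under its symbol, 48 genes were bright enough to test. Of these, 26 passed the threshold of an adjusted p under 0.05: 16 were higher in GeO2 cochleas and 10 were lower. That is 54.2% of the members tested, beside 16.3% of all 27022 probe sets tested (8.5% higher and 7.81% lower) and 59.2% of the 5179 genes of the authors' table (29.6% higher and 29.6% lower). The table had been selected on these same arrays, so its genes pass often, and the members passed about as often as the other genes listed with them. Of the 26, 11 changed at least 1.5-fold and 2 at least 2-fold. The median log2 change was 0.28 over the 48 members and 0.33 over the 37 transcription factors tested, beside -0.21 over the table's genes. Among the 37 factors, 13 were higher, 6 were lower and 18 did not pass. The 22 members that did not pass had adjusted p-values of 0.0504 to 0.192, and 15 of them lay under 0.1.

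The balance of rises and falls depended on the scaling and on single arrays. When each array was shifted to 1 median, 18 members were higher and 4 lower, in place of 16 and 10. The 6 falls that then missed the threshold were those of Gatad1, Klf13, Nfia, Nfix, Pou2f1 and Statip1. Without GeO2 replicate 1, 11 members were higher and 12 lower. The counts were 8 and 8 without GeO2 replicate 4, and 10 and 10 without control replicate 5. Leaving out 1 array at a time kept the call of 12 of the 26 members in every fit, 7 higher and 5 lower, and 14 lost it in at least 1 fit. None of the 26 changed direction in those 10 fits, nor under the other settings of the test at the same probe set. With another choice of probe set, or with a gene's probe sets averaged, 4 of them did: Foxp1, Gatad1, Klf12 and Nfia. In 16 of the 48 members the 5 GeO2 arrays did not overlap the 5 control arrays, and the same held for 12.2% of all probe sets and 43.2% of the table's genes. Of these, 13 passed the threshold as well: Foxk1, Sox4, Tcf4, Klf4, Foxj2, Klf6 and Foxp1 above the control arrays, and Tcf19, Tbx6, Nrm, Klf13, Gatad1 and Statip1 under them. Nrm, also among the 5 falls kept in every fit without 1 array, reached the test only through the control arrays. Its mean log2 level in GeO2 cochleas was under the lowest level tested.

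**Figure D1:**
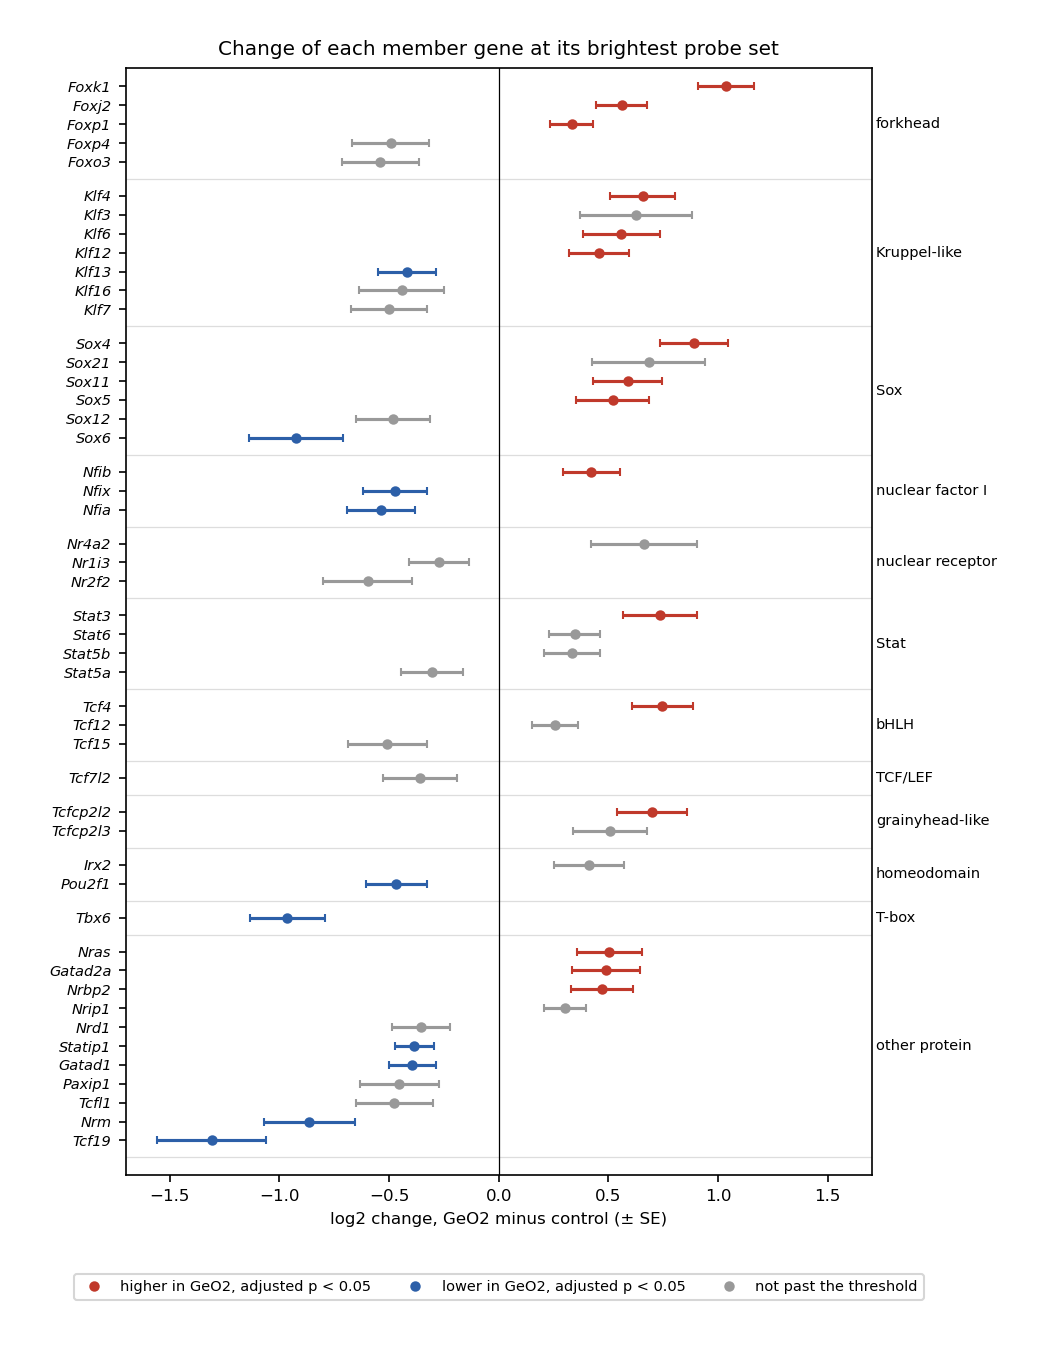
The log2 change (GeO2 minus control, with its standard error) of each of the 48 members tested, at the brightest probe set listed under its symbol. Members are grouped by protein family, in red where higher and in blue where lower at an adjusted p under 0.05. The points run from Tcf19 at -1.31 to Foxk1 at 1.04, and the nuclear receptors hold grey points only.

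Promoter sequences were at hand for 40 of the 52 members. They are those of RefSeq on mouse build GRCm38.p6, 250 bases before to 50 bases after the start of the gene. Each was searched on both strands for 5 short motifs: AGGTCA, at which nuclear receptors bind, TTCNNNGAA for STAT proteins, GTAAACA for forkhead proteins, AACAAAG for Sox and TCF/LEF proteins, and CACGTG, the E-box of clock and MYC proteins. Those of 4 genes are printed, because they are the nuclear receptor with the largest change, the STAT factor that rose, and 2 factors of development whose GeO2 arrays all lay above the control arrays. They are Nr1d2 (chr14:18239057-18239356, minus strand), Stat3 (chr11:100939491-100939790, minus strand), Klf4 (chr4:55532426-55532725, minus strand) and Sox4 (chr13:28953650-28953949, minus strand), read 5′ to 3′ on the gene's strand, and capitals mark a match to one of the 5 motifs.
Nr1d2: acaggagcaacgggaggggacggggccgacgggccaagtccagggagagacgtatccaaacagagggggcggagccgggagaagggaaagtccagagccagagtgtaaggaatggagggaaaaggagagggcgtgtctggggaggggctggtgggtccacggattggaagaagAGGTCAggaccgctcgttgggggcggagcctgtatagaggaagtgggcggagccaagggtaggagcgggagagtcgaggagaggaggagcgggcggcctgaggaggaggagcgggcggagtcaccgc
Stat3: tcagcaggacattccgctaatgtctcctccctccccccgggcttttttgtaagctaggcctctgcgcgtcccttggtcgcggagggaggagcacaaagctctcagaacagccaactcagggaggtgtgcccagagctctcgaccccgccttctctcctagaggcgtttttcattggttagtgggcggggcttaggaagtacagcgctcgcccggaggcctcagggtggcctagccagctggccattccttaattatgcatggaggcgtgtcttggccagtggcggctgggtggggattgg
Klf4: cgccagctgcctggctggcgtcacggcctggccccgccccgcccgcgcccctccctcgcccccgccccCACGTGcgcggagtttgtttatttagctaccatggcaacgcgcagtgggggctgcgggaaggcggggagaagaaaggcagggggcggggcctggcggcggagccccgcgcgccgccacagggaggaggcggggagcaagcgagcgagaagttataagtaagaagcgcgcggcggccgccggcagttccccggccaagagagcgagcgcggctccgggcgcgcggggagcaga
Sox4: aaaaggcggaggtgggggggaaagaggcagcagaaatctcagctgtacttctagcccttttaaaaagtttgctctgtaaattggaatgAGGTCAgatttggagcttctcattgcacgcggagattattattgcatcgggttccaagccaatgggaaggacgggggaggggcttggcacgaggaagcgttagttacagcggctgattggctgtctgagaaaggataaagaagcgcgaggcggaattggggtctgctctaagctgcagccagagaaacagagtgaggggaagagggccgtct

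The capitals are AGGTCA in Nr1d2, 77 bases before the start, and in Sox4, 162 bases before it, and CACGTG in Klf4, 182 bases before it. The window of Stat3 held none of the 5 motifs, which says only that these letters are not in these 300 bases. Over the 60 promoters of the members, AGGTCA was in 12 (20.0%), beside 16.3% of the 32851 mouse promoters of the same length outside chr18. AACAAAG was in 8 (13.3%), beside 5.85%, and these belong to Foxp1, Nfix, Pou2f1, Sox6 and Tcf7l2, some of which have several promoters. TTCNNNGAA was in 4 (6.67%), beside 8.3%, CACGTG in 4 (6.67%), beside 7.15%, and GTAAACA in 2 (3.33%), beside 3.65%. A match is a run of letters and not a measured binding site.

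Forkhead proteins bind DNA through a winged helix. Of 5 forkhead genes tested, 3 were higher in GeO2 cochleas and 2 did not pass. Foxk1, a repressor that acts in muscle progenitors and on genes of autophagy, had 3740.2, 3662, 4132, 4541 and 4143 signal units in GeO2 cochleas, against 1928, 1522, 2096, 2330.0 and 2011 in control cochleas. All 5 GeO2 arrays lay far above the highest control array, and the log2 change of 1.04 (SE 0.13), or 2.05-fold, had the smallest adjusted p of the members (limma, 0.000707). It was at most 0.00349 when any 1 array was left out. Foxj2, a widely expressed activator, had 3558, 4340.0, 4533, 4116 and 4195 units in GeO2 cochleas, against 2936, 2362, 2633, 3240.4 and 2892 in control cochleas. These values too did not overlap, and Foxj2 rose by 0.56 (SE 0.12) on the log2 scale (adjusted p = 0.00725).

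Foxp1, a repressor known from lymphocytes, heart and neurons, had 6079, 5546, 6206, 5898 and 5918 units in GeO2 cochleas, against 4281, 5340.0, 4305, 4960.3 and 4694 in control cochleas. The lowest GeO2 array was just above the highest control array, and the rise was small, 0.33 (SE 0.10, adjusted p = 0.034). It lost its call when any of 6 arrays was left out, with an adjusted p up to 0.0915. A dimmer probe set of Foxp1 gave the other sign, with 289.9 ± 134 units in GeO2 cochleas and 515 ± 158 in control cochleas (SD, n = 5 each). Its log2 change of -0.87 (SE 0.33) did not pass (adjusted p = 0.0892). The mean log2 level of this probe set in GeO2 cochleas was under the lowest level tested, equal to 283.2 units. It thus reached the test only through the control arrays. Foxo3, which insulin signalling holds out of the nucleus and which acts on stress genes, missed the threshold narrowly at -0.54 (SE 0.17, adjusted p = 0.0504), with 1399.8 ± 269 units in GeO2 cochleas and 2051 ± 419 in control cochleas. Foxp4, a relative of Foxp1, stood at -0.49 (SE 0.18, adjusted p = 0.0724). Foxn2 and Foxq1 were too dim to test; with no filter their adjusted p-values were 0.119 and 0.223.

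Kruppel-like factors bind GC-rich promoters through zinc fingers. Of the 7 tested, counted at the brightest probe set under each symbol, 3 were higher (Klf4, Klf6 and Klf12), 1 was lower (Klf13) and 3 did not pass. The dimmer probe set of Klf12 passed in the opposite direction. Klf4, known for barrier epithelia and for reprogramming cells to pluripotency, had 8576, 8137, 11425, 6266 and 7065 units in GeO2 cochleas, against 5624, 5142, 5599.7, 5102 and 4358 in control cochleas. The groups did not overlap, though the GeO2 arrays spread much more than the control arrays. Klf4 rose by 0.66 (SE 0.15) on the log2 scale (adjusted p = 0.0108) and kept its call without any 1 array, but not by a pooled-variance test on the linear signals.

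Klf6, induced by injury in many tissues, had 579, 505, 492, 797 and 558 units in GeO2 cochleas, against 406, 468, 379, 307 and 391 in control cochleas. The groups stood apart by a narrow gap, and the rise of 0.56 (SE 0.18, adjusted p = 0.0464) lost its call without any of 8 single arrays (adjusted p up to 0.109). A brighter probe set that the table lists under Copeb, the older name of the same gene, had 5940.0, 4382, 6209.9, 5688 and 6529 units in GeO2 cochleas, against 3114, 2602, 3443, 2617 and 2778 in control cochleas. There the groups were far apart, with a log2 change of 0.97 (SE 0.13, adjusted p = 0.00101) that stayed called without any 1 array.

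Klf13, which acts on chemokine genes in T lymphocytes, had 1219.8, 1134, 1001, 1489 and 1347 units in GeO2 cochleas, against 1825, 1601, 1737, 1495 and 1585 in control cochleas. The highest GeO2 array was only just under the lowest control array, and the fall of -0.42 (SE 0.13, adjusted p = 0.0465) lost its call without any of 9 arrays (adjusted p up to 0.113). Klf12, a repressor, gave opposite calls at its 2 probe sets. The brighter rose by 0.46 (SE 0.14, adjusted p = 0.0371), with 4346 ± 602 units in GeO2 cochleas and 3165 ± 490.0 in control cochleas (SD, n = 5 each). The dimmer fell, at -0.43 (SE 0.13, adjusted p = 0.0361), with 1629 ± 255 units in GeO2 cochleas and 2192 ± 176 in control cochleas. The first lost its call without any of 6 arrays (adjusted p up to 0.087) and the second without any of 9 (up to 0.0917), so no direction is given for the gene. Klf3, a repressor at CACCC boxes (0.63, SE 0.26), Klf7, known from sensory neurons (-0.50, SE 0.17), and Klf16 (-0.44, SE 0.19) did not pass.

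Sox proteins carry an HMG box that bends DNA. Of 6 tested, Sox4, Sox11 and Sox5 were higher in GeO2 cochleas, Sox6 was lower, and Sox12 and Sox21 did not pass. Sox4, Sox11 and Sox12 form the SoxC group of progenitors and young neurons, and Sox5 and Sox6 belong to the SoxD group, which works in cartilage. Sox6 is also needed for red cells to mature in mice.

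Sox4 had 5208, 6523, 7608, 4591 and 4205 units in GeO2 cochleas, against 3141, 2777, 2775, 3242 and 2888 in control cochleas. Every GeO2 array exceeded every control array, by a margin larger than the spread of the controls. The log2 change was 0.89 (SE 0.15), or 1.85-fold (adjusted p = 0.00318), and it kept its call without any 1 array. A dim probe set of Sox4 stood at 1.09 (SE 0.37) and did not pass (adjusted p = 0.0625). Its mean log2 level in control cochleas was under the lowest level tested, so it reached the test only through the GeO2 arrays. Sox11 rose by 0.59 (SE 0.16, adjusted p = 0.0238), with 869 ± 128 units in GeO2 cochleas and 574 ± 100.5 in control cochleas (SD, n = 5 each), and lost its call without any of 4 arrays (adjusted p up to 0.0593). Sox12, of the same group, went the other way without passing, at -0.48 (SE 0.17, adjusted p = 0.067).

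Sox6 had 2796, 2462, 1302, 1318 and 1880.5 units in GeO2 cochleas, against 3934, 3400.2, 2679, 3979 and 3936 in control cochleas. The groups overlapped in 1 of 25 pairs of arrays, where GeO2 replicate 1 was above control replicate 3. The log2 change was -0.93 (SE 0.22), or 1.9-fold lower (adjusted p = 0.0124). Sox6 has 4 probe sets and all of them had lower means in GeO2 cochleas: the second fell with no overlap, at -0.68 (SE 0.14, adjusted p = 0.00598), a weaker one stood at -0.57 (SE 0.21) without passing (adjusted p = 0.0868), and the dimmest was left out of the test. The erythroid marker score, the mean log2 signal of the 19 markers, was 11.11, 11.85, 9.45, 10.35 and 10.29 on GeO2 replicates 1 to 5 and 12.77, 12.79, 11.81, 12.99 and 13.02 on control replicates 1 to 5. The part of red-cell precursors in the fall of Sox6 was not tested. Sox5, its partner in cartilage, rose by 0.52 (SE 0.16, adjusted p = 0.0476, lost without any of 8 arrays, up to 0.102), and its second probe set stood at 0.51 (SE 0.20, adjusted p = 0.103). Sox21 stood at 0.68 (SE 0.26, adjusted p = 0.0905).

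**Figure D2:**
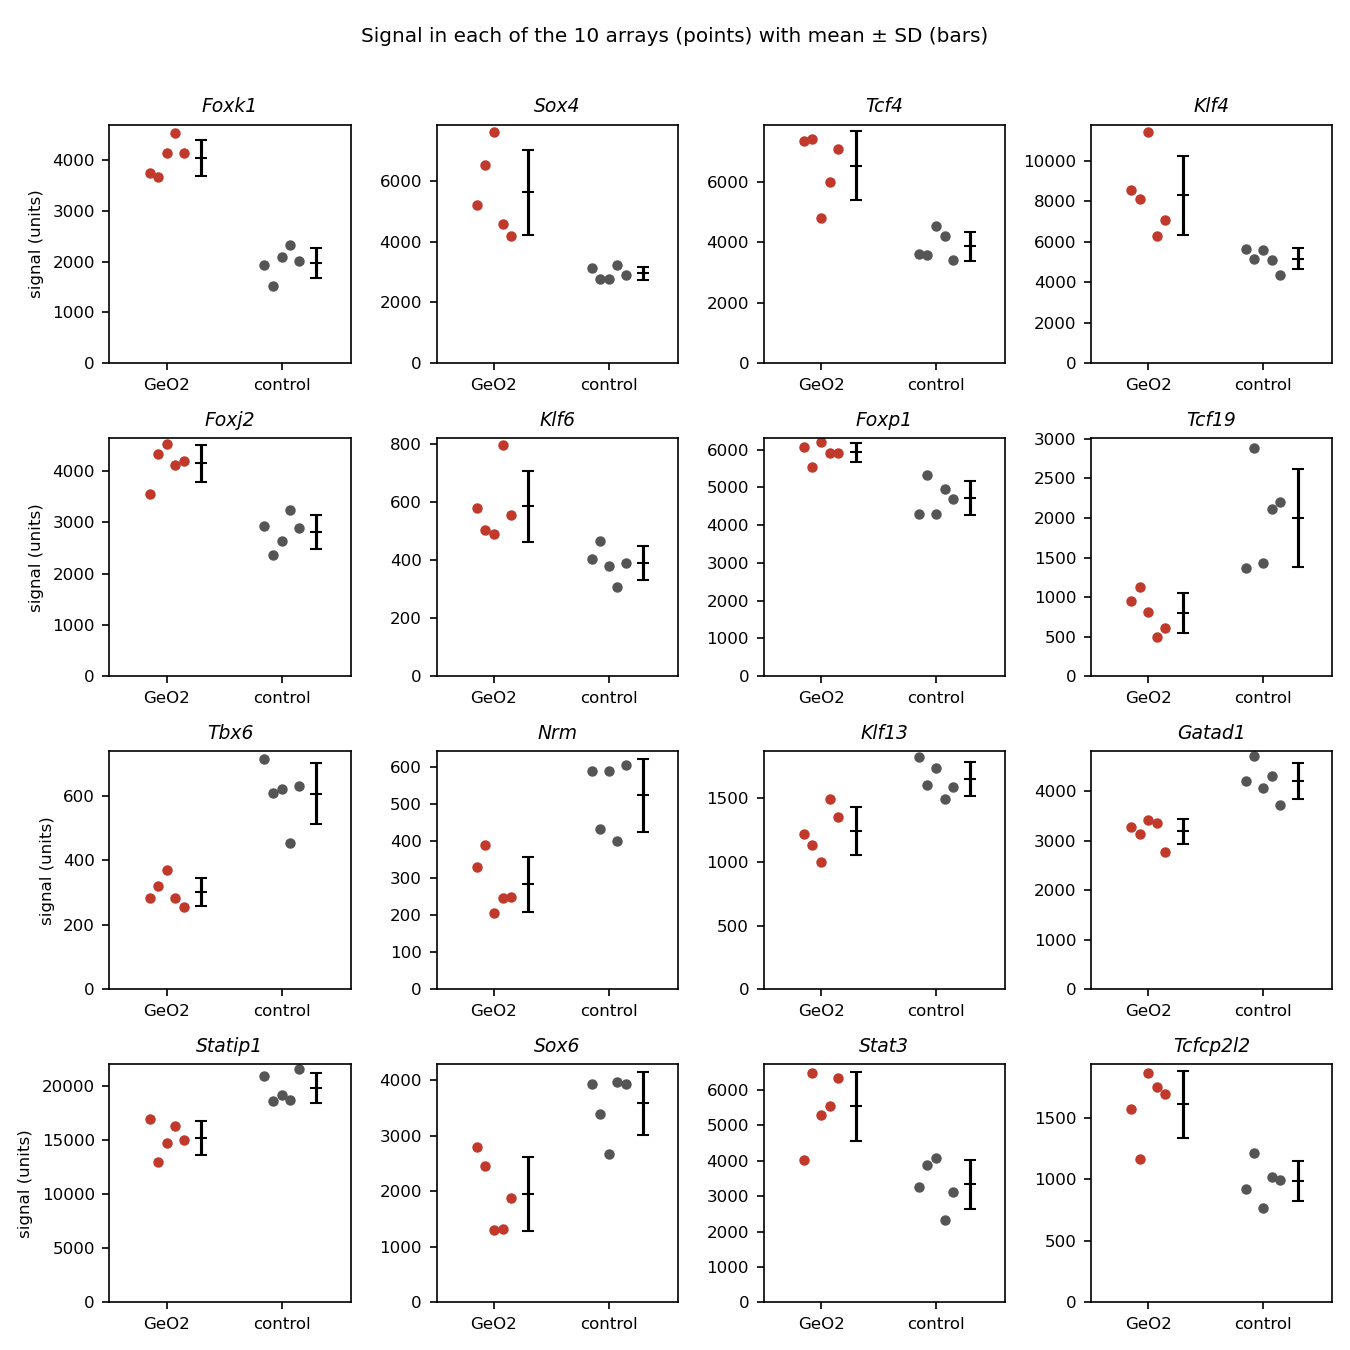
Signal of 16 members in each of the 10 arrays, GeO2 at the left and control at the right of each panel, with the mean and SD as a bar beside the points and each axis starting at 0. The groups stand apart in 13 panels, while Sox6, Stat3 and Tcfcp2l2 overlap in 1 of 25 pairs of arrays each.

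The 3 nuclear factor I genes tested encode proteins that bind DNA as dimers in glia, lung, muscle and many other tissues. All passed at the brightest probe set listed under their symbols, in different directions. Nfib was higher at 0.42 (SE 0.13, adjusted p = 0.0417), with 3209 ± 309 units in GeO2 cochleas and 2405 ± 387 in control cochleas (SD, n = 5 each). Nfix was lower at -0.47 (SE 0.15, adjusted p = 0.0444), with 18241 ± 4270.1 units in GeO2 cochleas and 24925 ± 2884 in control cochleas. Nfib lost its call without any of 8 arrays (adjusted p up to 0.0954) and Nfix without any of 7 (up to 0.106). A brighter probe set listed under another name of Nfib was higher too, with no overlap, at 0.37 (SE 0.12, adjusted p = 0.0498). That call was lost without any of 9 arrays (up to 0.101).

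Nfia, which turns neural progenitors to glia, had 4 probe sets in 2 directions. The brightest fell, at -0.54 (SE 0.15, adjusted p = 0.0306), and lost its call without any of 6 arrays (up to 0.0843). The dimmest had 751, 1062, 1164, 1275 and 968 units in GeO2 cochleas, against 649, 449, 427, 339 and 508 in control cochleas. There the groups did not overlap and the log2 change was 1.12 (SE 0.19, adjusted p = 0.00296), called without any 1 array. The others stood at 0.48 (SE 0.16) and 0.47 (SE 0.19) without passing. The direction of Nfia as a gene is therefore not given.

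None of the 3 nuclear receptors tested passed the threshold. By limma, 2 of them, Nr2f2 and Nr4a2, had an unadjusted p under 0.05, and with array weights Nr2f2 passed. Without 1 array, Nr2f2 missed the threshold in 6 of 10 fits and passed in the rest. With all arrays the adjusted p was 0.062 for Nr2f2, 0.0779 for Nr4a2 and 0.192 for Nr1i3. Nr2f2, an orphan receptor of mesenchyme and veins, had 2840.1, 1807, 3227, 2206 and 1921 units in GeO2 cochleas, against 4092, 4974, 3751, 2721 and 2715 in control cochleas. The groups overlapped in several pairs, the log2 change was -0.60 (SE 0.20), and a second probe set of the gene stood at 0.26 (SE 0.13). Nr4a2, or Nurr1, known from dopamine neurons and as an immediate early gene, stood at 0.66 (SE 0.24), with 1195 ± 385 units in GeO2 cochleas and 737 ± 192 in control cochleas (SD, n = 5 each). Nr1i3, the receptor CAR that senses drugs in liver, stood at -0.27 (SE 0.14).

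Nr1d2, the clock repressor REV-ERB beta, was too dim for the test but had the largest ratio of all the members. It had 239, 501, 436, 635 and 233 units in GeO2 cochleas, against 79.7, 69.5, 31.6, 41.5 and 277 in control cochleas. The first 4 control arrays lay under every GeO2 array, and control replicate 5 lay above GeO2 replicates 1 and 5. With no filter on dim probe sets its log2 change was 2.11 (SE 0.47) and limma's adjusted p was 0.0163, and the authors' deposited table gives a signed fold of 6.4 at p = 0.0087. Its printed promoter holds 1 AGGTCA. Nr2c1, the testicular receptor TR2, was also too dim, and with no filter stood at 0.69 (SE 0.30, adjusted p = 0.199).

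Genes around the nuclear receptors were taken from lists, of which only genes in the authors' table have a name here, and each list's counts stand beside the table's 59.2% called and its median of -0.21. Of 24 receptors named outside the Nr series, 3 were measured: Rora, an activator of the clock gene Bmal1, was higher, Esrrb, an estrogen-related receptor of strial marginal cells, was lower, and Rxrb did not pass (-0.34, SE 0.13), with a median of -0.34. Rora had 3902, 3534, 3941, 4799 and 4125 units in GeO2 cochleas, against 2169, 2307, 1962, 2609 and 2439.6 in control cochleas. Its groups were far apart, with a log2 change of 0.82 (SE 0.12, adjusted p = 0.00153). Esrrb stood at -0.67 (SE 0.21, adjusted p = 0.0483) and lost its call without any of 8 arrays (up to 0.113). Of 29 coregulators and chaperones, 17 were measured, 5 were higher, 4 were lower and 8 missed the threshold, the median being -0.38. The coactivators Ncoa1 (0.92, SE 0.20) and Ncoa3 (0.76, SE 0.13) rose, as did the acetyltransferase Crebbp (0.57, SE 0.14), the methyltransferase Nsd1 (0.60, SE 0.15) and Fkbp5, a cochaperone of steroid receptors (0.63, SE 0.14). Both cytosolic Hsp90 genes fell, Hsp90aa1 at -0.74 (SE 0.12) and Hsp90ab1 at -0.67 (SE 0.16), and so did Ncoa4 (-0.60, SE 0.16) and Carm1 (-0.48, SE 0.15). Carm1 lost its call without any of 7 arrays (up to 0.101) and Ncoa4 without either of 2 (up to 0.0607).

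Of 17 genes that glucocorticoids induce in many tissues, 6 were measured, 4 were higher, 1 was lower and 1 missed the threshold, the median being 0.52. Tsc22d3, or GILZ, a glucocorticoid-induced protein that damps inflammation, had 15113, 10169.8, 11870.1, 12608 and 13069 units in GeO2 cochleas, against 9155, 4964, 6085, 8533 and 9481 in control cochleas. The groups did not overlap (log2 change 0.75, SE 0.18, adjusted p = 0.0132). Fkbp5 had 5101, 4264, 6208, 4502 and 4661 units in GeO2 cochleas, against 2641, 3648, 3805, 3154 and 2734 in control cochleas, again with no overlap (adjusted p = 0.0103). Zbtb16 (1.14, SE 0.35) and Klf9 (0.42, SE 0.13) were higher too, but each lost its call without any of 8 arrays, with an adjusted p up to 0.105 for Zbtb16 and 0.098 for Klf9. Dusp1, a phosphatase of MAP kinases on the same list, went the other way at -0.78 (SE 0.17, adjusted p = 0.00867).

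Beside Nr1d2, 21 symbols of circadian clock genes were listed, with Bmal1 also under its older name Arntl. Of these, 7 genes were measured, 2 were higher, 1 was lower and 4 missed the threshold, the median being 0.63. Cry2, a repressor of the clock, had 2509.6, 3761, 4268, 4455 and 4295 units in GeO2 cochleas, against 2551, 1928, 2195, 2059.6 and 2372 in control cochleas. The lowest GeO2 array, replicate 1, fell within the controls and the others stood well above them (log2 change 0.77, SE 0.16, adjusted p = 0.00721). Dbp, an output gene of the clock, had 11888, 7231, 9217, 9635 and 10773 units in GeO2 cochleas, against 15848, 13241, 12350.3, 14817 and 11269 in control cochleas. It overlapped in 1 pair, with the lowest control at replicate 5, and its change of -0.48 (SE 0.14, adjusted p = 0.0306) lost its call without any of 6 arrays (up to 0.0845). Per2 (0.67, SE 0.24), Cry1 (0.63, SE 0.20), Csnk1d (0.54, SE 0.18) and Per3 (0.38, SE 0.13) did not pass, at adjusted p-values of 0.0541 for Per3, 0.0521 for Cry1, 0.0589 for Csnk1d and 0.0741 for Per2. The labels give no hour of tissue collection, and its part in these values was not tested.

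Of 4 STAT genes tested, Stat3 was higher and 3 did not pass. Stat3, which interleukin-6 and related cytokines activate through the receptor chain gp130, had 4031, 6471, 5302, 5533 and 6324 units in GeO2 cochleas, against 3266, 3876, 4065, 2333 and 3116 in control cochleas. GeO2 arrays were higher in 24 of 25 pairs: GeO2 replicate 1 fell just under control replicate 3. The log2 change was 0.74 (SE 0.17), or 1.67-fold (adjusted p = 0.0117), and it stayed called without any 1 array (up to 0.0351). Stat6, which interleukin-4 activates, did not overlap between the groups but missed the threshold at 0.35 (SE 0.12, adjusted p = 0.0578), with 3772 ± 287 units in GeO2 cochleas and 2974 ± 354 in control cochleas (SD, n = 5 each). The close pair Stat5a and Stat5b stood at -0.31 (SE 0.14) and 0.33 (SE 0.13), neither past the threshold.

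Of 39 receptors, kinases and inhibitors of the JAK-STAT pathway, 15 were measured, 6 were higher, 5 were lower and 4 missed the threshold, the median being -0.30. Among the inhibitors, Socs6 had 2956, 2099.8, 1993, 2892 and 2464 units in GeO2 cochleas, against 1446, 1569, 1307, 1673 and 1425 in control cochleas, with no overlap between the groups (log2 change 0.72, SE 0.14, adjusted p = 0.00512). Socs3, a target of Stat3 that blocks gp130, had 1232, 1002, 2052, 808 and 2058 units in GeO2 cochleas, against 678, 642, 1326, 418 and 502 in control cochleas. Its groups overlapped, and the change of 1.01 (SE 0.32, adjusted p = 0.048) lost its call without any of 7 arrays (up to 0.118). The phosphatases Ptpn11 (0.44, SE 0.09) and Ptpn2 (0.38, SE 0.11), the kinase Jak2 (0.48, SE 0.15) and the cytokine receptor chain Csf2rb (1.15, SE 0.33) were higher, and all but Ptpn11 lost their calls without some arrays: 5 for Ptpn2 (up to 0.0849), 7 for Jak2 (0.107) and 6 for Csf2rb (0.0716). The erythropoietin receptor Epor fell most, with 791, 818, 398, 659.7 and 455 units in GeO2 cochleas, against 1770.2, 2006, 868, 1347 and 1771 in control cochleas. Its groups did not overlap (log2 change -1.29, SE 0.25, adjusted p = 0.0055), and Epor is itself one of the erythroid markers. Cish, a target of Stat5 (-0.66, SE 0.15), and the SUMO ligase Pias4 (-0.74, SE 0.15) fell as well. Il6st, the gene of gp130, was lower at -0.31 (SE 0.09) and Ghr, the growth hormone receptor, at -0.34 (SE 0.11), but Il6st lost its call without any of 6 arrays (up to 0.0859) and Ghr without any of 9 (0.109).

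Of the basic helix-loop-helix genes, 3 were tested, and Tcf4 was higher at its brightest probe set. Tcf4 and Tcf12 encode E proteins, the partners with which tissue-specific helix-loop-helix factors, such as that of hair cells, bind DNA. Tcf4 had 7378, 7446, 4806, 6003 and 7114 units in GeO2 cochleas, against 3631, 3573, 4532, 4202 and 3418 in control cochleas. The groups did not overlap, though GeO2 replicate 3 was close to control replicate 3 (log2 change 0.75, SE 0.14, adjusted p = 0.00425). Its next probe sets rose too, at 0.63 (SE 0.15, adjusted p = 0.0141) and 0.60 (SE 0.13, adjusted p = 0.00774). The dimmest, too dim to test, had 157, 117, 175, 160.4 and 167 units in GeO2 cochleas, against 282, 271, 297, 512 and 282 in control cochleas. Those values went the other way with no overlap, and with no filter the log2 change was -0.98 (SE 0.24, adjusted p = 0.0267).

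Tcf12 was counted as not passed because its brightest probe set stood at 0.25 (SE 0.10, adjusted p = 0.114), with 9035 ± 1203 units in GeO2 cochleas and 7534 ± 518 in control cochleas (SD, n = 5 each). All 4 of its probe sets pointed upward, and a dimmer one had 1569, 2061, 1602, 2546 and 1888 units in GeO2 cochleas, against 857, 958, 805, 712 and 869 in control cochleas. That pair of groups was widely separated, with a log2 change of 1.17 (SE 0.15), or 2.25-fold (adjusted p = 0.000817). The dimmest rose by 0.70 (SE 0.14, adjusted p = 0.00585), and one stood at 0.43 (SE 0.14) without passing (adjusted p = 0.0561). Tcf15, or paraxis, a factor of the somites, did not overlap between groups and stood at -0.51 (SE 0.18, adjusted p = 0.0727). Id2, which binds E proteins and keeps them off DNA, fell: it had 854, 729.7, 1476, 1029.5 and 1056 units in GeO2 cochleas, against 2279, 2418, 1683, 2229 and 2029.9 in control cochleas. The groups of Id2 did not overlap (log2 change -1.07, SE 0.18, adjusted p = 0.00272).

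Tcf7l2 shares its name with these but is an HMG-box factor through which Wnt and beta-catenin act on genes. Its 2 probe sets pointed in opposite directions and neither passed, at -0.36 (SE 0.17, adjusted p = 0.166) and 0.41 (SE 0.15, adjusted p = 0.0868). Of 30 symbols listed for Wnt pathway genes, 5 were measured, 2 were higher and 3 missed the threshold, the median being 0.41. Gsk3b, the kinase that marks beta-catenin for decay, had 15096, 20442, 19130.2, 23843 and 20666 units in GeO2 cochleas, against 12220.4, 9545, 11611, 13163 and 13568 in control cochleas. Its groups did not overlap (log2 change 0.72, SE 0.13, adjusted p = 0.00348). The other call of this list is that of the Wnt receptor Fzd6, which had 439.5, 432, 584, 581 and 409.8 units in GeO2 cochleas, against 241, 50.9, 193, 246 and 308 in control cochleas (log2 change 1.34, SE 0.36, adjusted p = 0.0242). Its mean log2 level in control cochleas was under the lowest level tested, equal to 283.2 units, so it reached the test only through the GeO2 arrays, and it was tested in only 8 of the 10 fits without 1 array. Ctnnb1, the gene of beta-catenin (0.41, SE 0.14), its inhibitor Ctnnbip1 (-0.35, SE 0.12) and Apc (-1.0, SE 0.35) did not pass.

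The grainyhead-like genes hold epithelial sheets together through junction genes, and changes in human GRHL2 are known to cause deafness. Grhl1, listed as Tcfcp2l2, had 1566, 1166, 1863, 1748 and 1691 units in GeO2 cochleas, against 921, 1212, 768, 1017 and 995 in control cochleas. GeO2 arrays were higher in 24 of 25 pairs (log2 change 0.70, SE 0.16, adjusted p = 0.0116). Grhl2, listed as Tcfcp2l3, pointed the same way at 0.51 (SE 0.17) without passing (adjusted p = 0.0586), with 9319 ± 2089.6 units in GeO2 cochleas and 6508 ± 1242 in control cochleas (SD, n = 5 each).

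Tbx6, a T-box factor that makes paraxial mesoderm in the embryo, was lower. It had 282, 321, 368, 283 and 254 units in GeO2 cochleas, against 714, 609.6, 621, 453 and 629 in control cochleas. The groups did not overlap (log2 change -0.97, SE 0.17, or 1.95-fold lower, adjusted p = 0.0034), and the call stood without any 1 array (up to 0.0128). Of the homeodomain factors, Pou2f1, or Oct-1, which binds octamer sites in most cell types, fell at -0.47 (SE 0.14, adjusted p = 0.0384), with 1488 ± 119.5 units in GeO2 cochleas and 2084 ± 371 in control cochleas (SD, n = 5 each). It lost its call without any of 6 arrays (up to 0.0901). Irx2, an Iroquois factor, stood at 0.41 (SE 0.16, adjusted p = 0.0989).

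Some partners of Hox and sine oculis homeobox factors were measured, while those factors were not analysed here. Of 9 partners of Hox proteins, 5 were measured, with Meis1 higher at 0.67 (SE 0.16, adjusted p = 0.0148), Pbx2 lower at -0.72 (SE 0.14, adjusted p = 0.00475), the other 3 not past the threshold and a median of -0.32. Partners of the sine oculis homeobox proteins number 6 on the list, and 2 were measured: the corepressor Dach1 was higher at 0.83 (SE 0.20, adjusted p = 0.0153), Eya4, a gene of human deafness, stood at 0.37 (SE 0.13), and the median was 0.60. For other developmental factors with a role in the inner ear, 43 symbols were listed. Of these, 8 were measured, 2 were higher, 3 were lower and 3 missed the threshold, the median being -0.11. Zeb2, a repressor of epithelial genes, rose by 0.85 (SE 0.21, adjusted p = 0.015) and Runx1, a factor of blood and sensory neurons, by 0.63 (SE 0.14, adjusted p = 0.0121). Mitf, the master factor of melanocytes and of the intermediate cells of the stria, had 1002, 674, 460.2, 594 and 581 units in GeO2 cochleas, against 1180.4, 1299, 986, 1244 and 1073 in control cochleas. GeO2 replicate 1 overlapped the controls and the others lay under them (log2 change -0.83, SE 0.19, adjusted p = 0.0106). Id2 and Esrrb, given with their partners, are the other falls.

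**Figure D3:**
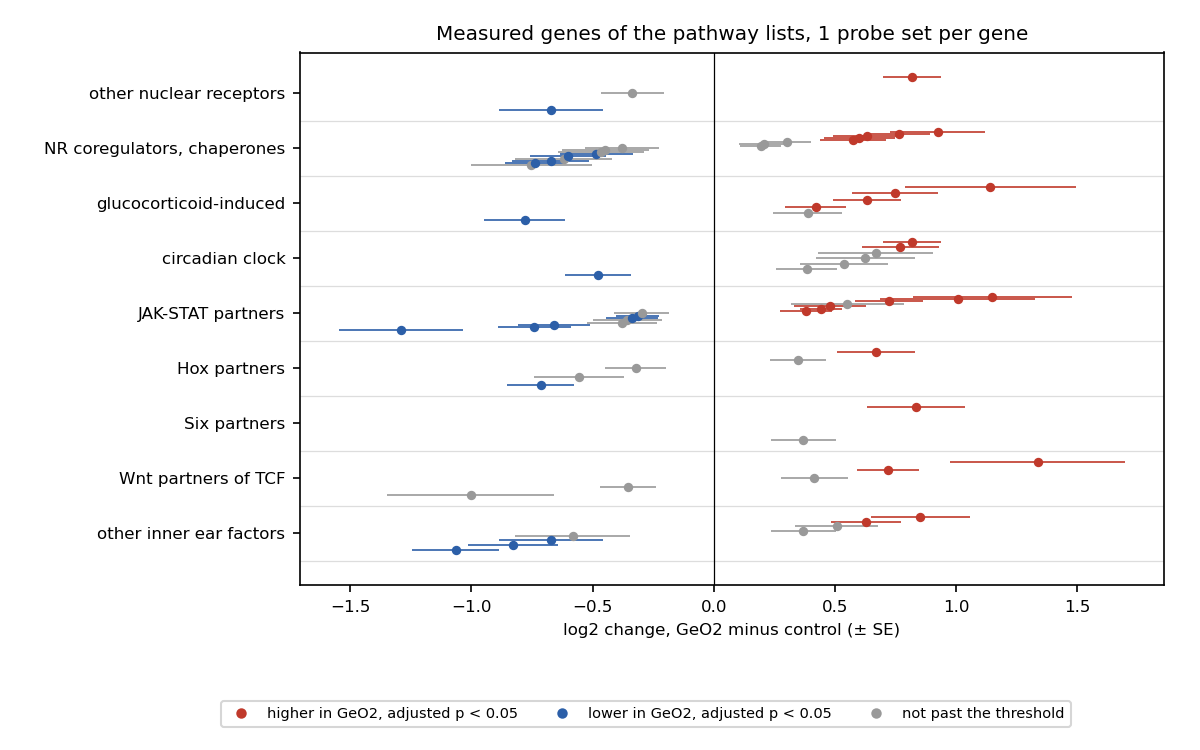
The log2 change (GeO2 minus control, with its standard error) of each measured gene of the 9 pathway lists, 1 probe set per gene, in red where higher and in blue where lower at an adjusted p under 0.05. The lists hold both colours and grey points in most cases, and those of the Wnt and the sine oculis homeobox partners hold no blue.

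The 11 other proteins whose symbols fit the rule are not DNA-binding factors of these families, and 3 were higher, 4 were lower and 4 did not pass. Tcf19, a PHD-finger chromatin protein whose transcript peaks as cells enter S phase, had 952, 1125, 809, 498 and 611 units in GeO2 cochleas, against 1367, 2890.0, 1436, 2109 and 2198 in control cochleas. Every GeO2 array was under every control array, and the log2 change of -1.31 (SE 0.25), or 2.48-fold lower (adjusted p = 0.00453), was the largest in size among the members tested. Nrm, the inner nuclear membrane protein nurim, had 329.8, 388, 205, 246 and 248 units in GeO2 cochleas, against 588, 432, 589, 401 and 605 in control cochleas. Its groups did not overlap (log2 change -0.86, SE 0.21, adjusted p = 0.015), but its mean in GeO2 cochleas was under the lowest level tested, so it reached the test only through the control arrays. The score of the 24 markers of dividing cells was 10.35, 11.03, 9.73, 9.69 and 9.86 on GeO2 replicates 1 to 5 and 11.69, 11.98, 10.98, 12.04 and 11.93 on control replicates 1 to 5. The part of dividing cells in the falls of Tcf19 and Nrm was not tested.

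**Figure D4:**
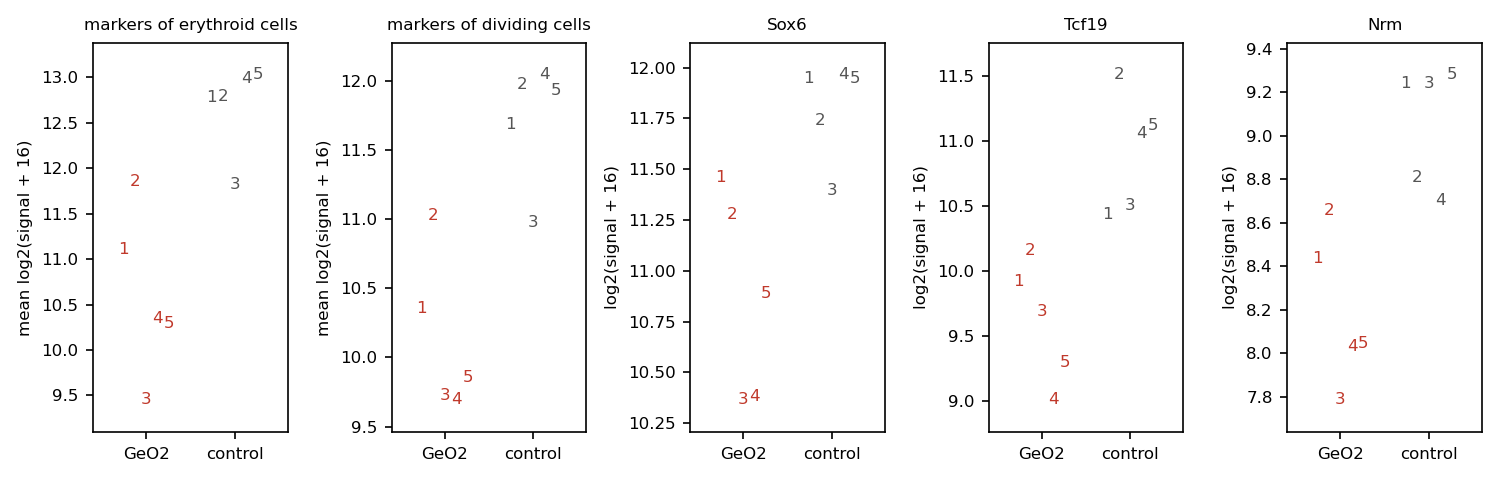
Mean log2 signal of the erythroid and of the dividing cell markers on each array, beside the log2 signal of Sox6, Tcf19 and Nrm, with GeO2 at the left, control at the right and digits naming the replicate. Erythroid scores lie at 9.45 to 11.85 in GeO2 cochleas and 11.81 to 13.02 in control cochleas.

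Elp2, listed as Statip1, a subunit of Elongator that was first found as a partner of Stat3, had 16957, 12948, 14730.1, 16270.4 and 15041 units in GeO2 cochleas, against 20940.2, 18611, 19122, 18732 and 21552 in control cochleas. The groups stood apart, with a small log2 change of -0.38 (SE 0.09, adjusted p = 0.0128) that missed the threshold after each array was shifted to 1 median (0.0536). Gatad1, a zinc-finger protein of chromatin, had 3276, 3146, 3422, 3356 and 2784 units in GeO2 cochleas, against 4211, 4716, 4064, 4321 and 3721 in control cochleas. These did not overlap either (-0.39, SE 0.11, adjusted p = 0.0244), but the call was lost without any of 3 arrays (up to 0.0691), and a second probe set stood at 0.46 (SE 0.16). The GTPase Nras (0.50, SE 0.15), the NuRD subunit Gatad2a (0.49, SE 0.16) and the pseudokinase Nrbp2 (0.47, SE 0.14) were higher, and each lost its call without some arrays: 8 for Nras (up to 0.077), 8 for Gatad2a (0.115) and 6 for Nrbp2 (0.0877). Nrip1, a corepressor of nuclear receptors, stood at 0.30 (SE 0.10, adjusted p = 0.0512) at its brighter probe set and fell at -0.49 (SE 0.13, adjusted p = 0.0205) at its dimmer one, both with no overlap. The protease gene Nrd1 (-0.35, SE 0.13), Paxip1 (-0.45, SE 0.18) and Vps72, listed as Tcfl1 (-0.48, SE 0.17), did not pass.

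Of the 52 members, 15 had several probe sets in the table, and in 9 of these (60%) the probe sets pointed in different directions. The same held for 6 of the 12 transcription factors among them (50%) and for 228 of 1169 genes with several probe sets in the whole table (19.5%). The 6 factors are Foxp1, Klf12, Nfia, Nr2f2, Tcf4 and Tcf7l2, and the other proteins are Gatad1, Gatad2a and Nrip1. Klf12 and Nfia passed the threshold in both directions. In Sox4, Sox5, Sox6, Sox11, Tcf12 and Nr1i3 all the probe sets pointed the same way. Over all 75 probe sets, 68 were tested, of which 21 were higher, 13 were lower and 34 did not pass, beside 59.7% called over the table's probe sets (31.2% higher and 28.5% lower). The files do not say which transcript or exon a probe set reads, so counts per gene rest on the choice of the brightest: when a gene's probe sets were averaged, 13 members were higher and 6 were lower.

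**Figure D5:**
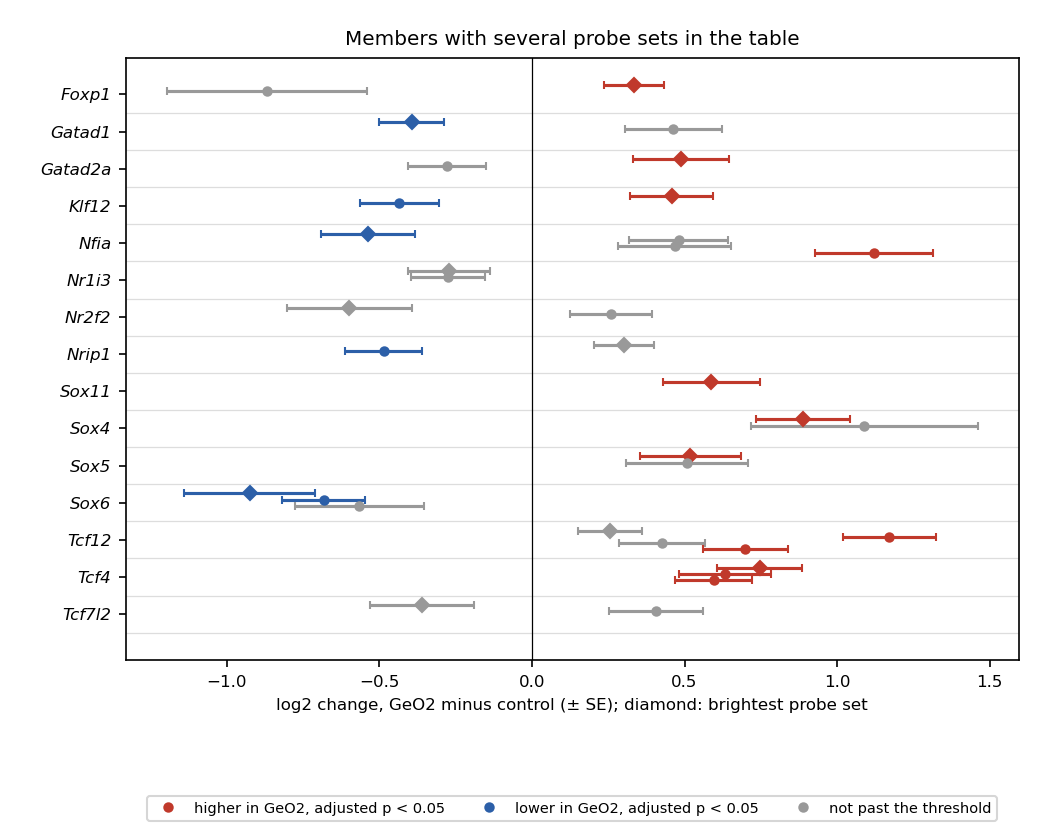
The log2 change (GeO2 minus control, with its standard error) of every tested probe set of the 15 members that have several in the table, with a diamond for the brightest of each gene, in red where higher and in blue where lower at an adjusted p under 0.05. Klf12 and Nfia have points of both colours.

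The table uses older names for some genes of these families. Updating names to current RefSeq symbols before applying the rule gave 54 genes, 51 of them tested, with 17 higher and 12 lower. Of the probe sets this added, Foxk2, the close relative of Foxk1, fell while Foxk1 rose: it had 2299, 2199, 1984, 2183 and 2292 units in GeO2 cochleas, against 3211, 3059, 2889, 2918 and 3653 in control cochleas. The groups did not overlap (log2 change -0.52, SE 0.11, adjusted p = 0.0077). Foxn3, a repressor of the forkhead family, was lower at -0.40 (SE 0.13), with an adjusted p of 0.0498 right at the threshold that was lost without any of 8 arrays (up to 0.109). A brighter probe set of Foxn2 stood at 0.38 (SE 0.14, adjusted p = 0.0837). Klf9, induced by glucocorticoids and thyroid hormone, was higher at 0.42 (SE 0.13, adjusted p = 0.0385), and Klf10, induced by TGF beta, stood at 0.38 (SE 0.16, adjusted p = 0.118). Paxbp1, which binds Pax proteins in muscle precursors, was higher at 0.83 (SE 0.20, adjusted p = 0.0147), and Nr2c2ap, a protein bound to the receptor TR4, was lower at -0.44 (SE 0.11, adjusted p = 0.0198). The call of Nr2c2ap was lost without GeO2 replicate 5 (adjusted p = 0.0509). A further probe set of Sox11 stood at 0.38 (SE 0.16, adjusted p = 0.125).

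Markers of other cell types were measured on the same arrays, and few of each list have a name here. Each count stands beside the 59.2% of the table's genes that were called (29.6% higher and 29.6% lower). Strial marginal cells, which secrete potassium, had 5 measured markers of 13, all lower, with Kcne1 at -2.96 and summed signals of 18482 to 24416 units in GeO2 cochleas and 36249.6 to 40391 in control cochleas. Kcne1 had a mean log2 level in GeO2 cochleas under the lowest level tested and reached the test only through the control arrays. Strial intermediate cells had 4 of 12, 3 of them lower, with summed signals of 22691 to 34824 units in GeO2 cochleas and 35507 to 45520.5 in control cochleas. Spiral ligament fibrocytes had 6 of 16, 5 of them lower, with 109785 to 141665 units in GeO2 cochleas and 138201 to 180489 in control cochleas. Of these genes, Car2, with a mean of 34414 units in GeO2 cochleas and 47160 in control cochleas, is also on the erythroid list. Gjb6 is also on the list of supporting cells. Supporting cells had 4 of 14, 3 of them higher, with 49568 to 64982 units in GeO2 cochleas and 43203 to 48061 in control cochleas, and hair cells had 1 of 15, Myo6, higher, with 2983 to 4777 units in GeO2 cochleas and 1685 to 3341 in control cochleas. Schwann cells had 5 of 12, 1 higher and 3 lower, with 39741 to 61092 units in GeO2 cochleas and 43283 to 51547 in control cochleas, and spiral ganglion neurons had 1 of 14, Snap25, which did not pass, with 843 to 1279 units in GeO2 cochleas and 1106 to 2106 in control cochleas.

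Among blood cells, neutrophils had 2 measured markers of 18, Lcn2 and Cd177, both higher, with summed signals of 2932 to 25941 units in GeO2 cochleas and 459.5 to 1717 in control cochleas. Macrophages had 1 of 15, Msr1, higher, with 666 to 3444 units in GeO2 cochleas and 363 to 593 in control cochleas. T lymphocytes had 1 of 13, Il7r, higher, with 431 to 2468 units in GeO2 cochleas and 298 to 538 in control cochleas, and B lymphocytes had 1 of 17, Ebf1, lower, with 1464 to 2109.6 units in GeO2 cochleas and 2565 to 3506 in control cochleas. In bone, 4 of 13 osteoblast markers were measured, 1 higher and 1 lower, with 7107 to 9866 units in GeO2 cochleas and 6164 to 7590.1 in control cochleas, and 3 of 9 osteoclast markers, 1 higher, with 1657 to 3592 units in GeO2 cochleas and 2087 to 3489 in control cochleas. Endothelial cells had 3 of 11, 1 higher and 1 lower, with 3735 to 5193 units in GeO2 cochleas and 3858 to 4812 in control cochleas, and skeletal muscle had 2 of 14, both lower, with 1466 to 2411 units in GeO2 cochleas and 2173 to 6209 in control cochleas. The middle ear epithelium had 3 of 13, 1 higher and 2 lower, with 1855 to 13132 units in GeO2 cochleas and 2639.9 to 4453 in control cochleas. Of the 77 marker genes called, 20 lost the call in at least 1 fit without 1 array, among them Cd177 without any of 9 arrays (adjusted p up to 0.0897), Esrrb without any of 8 (0.113), Otog 7 (0.101), Myo6 6 (0.0856), and Mcm4, Dmp1, Aqp5, Mcm2, Sftpd, Tyr, Eng, Mki67, Slc1a3, Cox8b, Cnp, Tek, Cox7a1, Slc12a2 and Tfrc without 1 to 6 arrays (0.0505 to 0.0775). Kcne1, Epb42, Nfe2, Ccnb1, Bub1 and Atp6v0d2 had 1 group's mean under the lowest level tested, so each reached the test only through the other group. None of these markers was at 0 on any array, and their part in the changes of Stat3, Socs3, Klf4, Mitf and Esrrb, factors and genes that those cells also use, was not tested. Mitf is itself one of the strial intermediate cell markers, and Esrrb one of the marginal cell markers.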

How the data were processed

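Per the labels' protocols, total RNA of cochlea was amplified into cRNA carrying biotin, and this was read on Affymetrix arrays, 1 for each of 10 samples (5 GeO2, 5 control). The deposited values are linear signal intensities per probe set, made with GCOS 1.3 per the submitters' processing notes. The 2% trimmed mean was 1496 on every array, so the authors had already scaled them to a target that is not stated. Per the file headers and closing note, the authors' deposited table lists 7806 probe sets, each with a p-value and a score, the fold change with its sign, and was used for names only, apart from 1 quoted pair of values. Of these probe sets 7095 have 1 symbol, 87 several and 611 none, and 13 symbols were spoilt into a date or number.

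From there, the signals were turned into log2(signal + 16) without further scaling, and the 18015 probe sets in the lowest 40% by mean were left out, which left 27022. This scale understates changes of dim probe sets. limma 3.58.1 in R 4.3.3 (lmFit, eBayes with trend, two-sided) compared GeO2 with control, with Benjamini-Hochberg adjustment over all 27022 and a threshold of 0.05. The code was tested on simulated data. Each member was represented by the brightest tested probe set listed under its symbol, and each list gene by the brightest under its current name. Current names, and promoters on GRCm38.p6, came from RefSeq tables: 48 member symbols were current and 4 were synonyms. A genome build for the arrays is not stated.

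By a fixed rule, values of every array are given for members that passed with no overlap between groups (up to 12 rises and 12 falls), other members that passed are named with their change, and members with a known role in the inner ear are named in any case. Lists are described by up to 4 genes; further list genes, members that did not pass, and genes under older names were picked after their values were seen. The members and lists were chosen with earlier results of these data known. No set test was made, since the named genes had been selected on these arrays. Replicate numbers stand in the labels of both groups. Same-numbered arrays correlated at 0.172, -0.0506, 0.0990, 0.114 and 0.0871 in their deviations from the group means, not all above 0.1, so the numbers were not taken as pairs. Alternatives were quantile normalization, a median shift, offsets of 1 and 64, no filter, a 60% filter, array weights, a replicate block, no trend, a pooled-variance test on linear intensities, other choices of probe set and name, and leaving out each array.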

Additional observations from a re-analysis of the deposited data

Results flagged for a closer look

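Over 96 sets of 5 arrays, the signal of 1 array stood far from the other 4 in 5 sets by Dixon's criterion (gap over range above 0.71), which chance alone gives in about 1 set in 20. Gatad2a had 2773 units on control replicate 2, while the other controls lay at 1762 to 1934. Irx2 had 2002 units on control replicate 2, above the other controls at 1613 to 1683. Klf3 had 246 units on control replicate 3, under the other controls at 569 to 729. Nfix had 19961 units on control replicate 5, under the other controls at 25544 to 27510.5. Nrd1 had 1876 units on GeO2 replicate 3, under the other GeO2 arrays at 2465 to 2680.5.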

How the results depend on the processing

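Over all probe sets, 4408 were called, and 3244 to 6197 under the 10 alternatives other than leaving out an array. Members called lower numbered 4 after the median shift, 17 with array weights, 6 with the mean of all probe sets and 6 among transcription factors only, in place of 10. Members called higher numbered 10 by the pooled-variance test on linear intensities, in place of 16, and marker genes called by it numbered 49, in place of 77. Leaving out 1 array gave 2795 to 4855 probe sets, 7 to 13 members higher, 5 to 12 lower, 25 to 44 pathway genes (37 with all arrays) and 59 to 76 marker genes. The probe sets called were 2795 without GeO2 replicate 5 and 2816 without control replicate 1. Members higher numbered 8 without GeO2 replicate 4, 9 without GeO2 replicate 5, 7 without control replicate 1 and 10 without control replicate 2 or 5. Members lower numbered 5 without GeO2 replicate 5 or control replicate 1 and 6 without control replicate 2. A replicate block (arrays of one number as a block) called 4431 probe sets, 14 members higher and 10 lower, and only replicate 5 of the GeO2 arrays correlated best with the control of its own number. Of the 26 members called, 10 were called under every alternative in which their probe set was tested. Among these, Tbx6 and Nrm were tested in only 9 of the 10 settings other than leaving out an array. None was reversed in the fits without 1 array or under the 10 other settings at the same probe set, but 4 were by another choice of probe set. Foxp1 stood at -0.27, Gatad1 at 0.035 and Nfia at 0.38 with the mean of a gene's probe sets (adjusted p 0.363, 0.885 and 0.0626), and Klf12 at -0.43 and Nfia at 1.12 at the probe set with the smallest p. These 2 choices were added per gene after seeing the data; the cause of the lost calls was not tested. Dim probe sets, Nr1d2 among them, have too little signal over background for a firm size of change.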
